A study of Mus musculus with 25 samples.

Results

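Sorted neurons of the sensorimotor cortex that carried a deletion of *Rest* (REST cKO) were compared with wild-type (WT) neurons after spinal cord injury (SCI), with the days after injury pooled. The comparison takes every injured library by its labelled genotype and treatment, which gives 18 of the 25 libraries, 9 of each genotype. WT had 3 libraries at each of days 1, 3 and 7, and REST cKO had 2 at day 1, 4 at day 3 and 3 at day 7. The other 7 libraries came from sham-operated mice and were used for the genotype difference without injury, for its test against the injured one, and in an alternative fit. All mice, WT included, were of the C57BL/6 strain and carried REST flx/flx, so that Cre can cut out *Rest*, together with STOP flx/flx TdTomato, which turns red once Cre has acted. WT here means an injection of AAV-Syn-GFP, a virus that makes GFP in neurons, and REST cKO means AAV-Syn-Cre, which makes the Cre recombinase in neurons from the same synapsin promoter. The injured mice then had a complete crush of the thoracic spinal cord, which cuts the axons of the corticospinal tract. The mice were young adults of both sexes, and the study describes its replicates as mice, although the labels do not tie a library to a mouse. WT cells were sorted by GFP and REST cKO cells by TdTomato, so that the deletion, the virus and the reporter cannot be told apart.

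REST is a zinc-finger repressor that binds a long DNA element called RE1 (also NRSE). It recruits the corepressors RCOR1 and SIN3A, with histone deacetylases and histone methyltransferases, and keeps genes for synaptic and other neuronal functions silent outside neurons. In mature neurons it is low, and injury, seizures or ischaemia are known to bring it back. The comparison asks which genes differ when injured neurons lack REST, whatever the day.

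The values are log2 normalised counts from a 3′ RNA-seq kit, where a difference of 1 is a doubling. The depth of single libraries is not known from these values. The libraries differed in how many genes sat at very low values. The share of genes with a log2 value under -2 ran from 4.29% to 29.5% in WT (median 11.1%) and from 2.77% to 10.7% in REST cKO (median 6.45%), a difference of -5.54 percentage points averaged over the days. An exact permutation test of genotype within days gave p = 0.0260 for this share (two-sided, 7000 arrangements). The arrangements did not take batch into account, and the share differed between batches. Its mean was 15.03% in WT and 9.97% in REST cKO in batch 1, 8.07% and 6.68% in batch 2, and 6.44% (1 library) and 3.42% in batch 3. Batch was uneven, with 5, 3 and 1 WT libraries and 2, 4 and 3 REST cKO libraries in batches 1, 2 and 3, and so was sex, with 3 WT and 5 REST cKO libraries labelled male. Genes of the sex chromosomes did not follow the labelled sex in every library. WT day 7 replicate 12, labelled female, had log2 values of 0.26 for *Xist*, 2.20 for *Ddx3y* and -1.52 for *Eif2s3y*, and REST cKO day 1 replicate 25, labelled male, had 1.74, -0.04 and -0.70. Genes that define other cells of the cortex were present in these sorted neurons. The mean log2 value over the 18 libraries was 2.63 for *Snap25*, a synaptic gene of neurons in general, 1.89 for *Slc17a7* and 1.67 for *Camk2a*, which mark excitatory neurons. It was 4.43 for *Ctss* and 3.10 for *C1qa*, which mark microglia. The values are not per length, so no order of levels between genes is read from them. Fewer cells of a type and less RNA per cell cannot be told apart here. For 140 of the 9931 genes the values still correlated with a sequencing component that should have been regressed out (from 0.000621 to 0.369), against at most 3.94e-10 in the other 9791 genes. *Rest*, *Atf2*, *Jun*, *Smad1*, *Sox11*, *Atf3*, *Stat3*, *Mapkapk2*, *Gabra2* and *Gabra3* are among the 140, and the part of this in their differences was not tested.

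*Rest*, the deleted gene, lies on chromosome 5 (chr5:77265491-77286432, plus strand, GRCm38). At day 1 its log2 values were -1.35, 0.71 and 0.27 in WT and -0.43 and -0.40 in REST cKO. At day 3 they were 1.64, 2.88 and 0.56 in WT and -0.04, -0.31, -0.24 and -1.61 in REST cKO. At day 7 they were 0.26, 2.30 and 2.74 in WT and -1.21, -0.33 and -0.97 in REST cKO. Every REST cKO library was thus below every WT library at days 3 and 7, while at day 1 the lowest library was a WT one. Over the days the fitted difference (REST cKO minus WT) was -1.78 on the log2 scale (standard error 0.52, 95% interval -2.86 to -0.70, unadjusted p = 0.00248, adjusted p = 0.612 from limma). The group means, without day or the components in a model, differed by -1.34, -2.29 and -1.55 within batches 1, 2 and 3. The days were not balanced between genotypes within batches, and batch 3 held 1 WT library. *Rest* stayed measurable in REST cKO. Reads come from the 3′ end of transcripts, and whether they lie outside the deleted exons was not tested. The values of *Rest* correlated with a sequencing component by 0.326.

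Across the genome no gene passed. Of 9931 genes tested with limma, with day as a factor, 0 had an adjusted p-value under 0.1 (0%), and the smallest was 0.438. At an unadjusted p-value under 0.05 there were 658 genes, 540 higher in REST cKO (5.44% of all genes) and 118 lower (1.19%). With a term for batch in the model 384 were higher and 145 lower, and with a term for sex 489 and 138, and in both models 0 genes passed (smallest adjusted p-values 0.155 and 0.655 from limma). The median difference over all genes was 0.16, but the library medians themselves overlapped and their difference, 0.18 averaged over the days, had p = 0.0936 in the exact permutation test within days. With each library's median subtracted the median difference was -0.01 and the split became 306 higher (3.08%) and 287 lower (2.89%), and with quantile normalization it was 260 higher and 257 lower. On these scales higher and lower genes were nearly equal in number, and counts of lists are on the deposited scale unless they are said to be centred, that is, with library medians subtracted. The median standard error of a gene was 0.57, and the 95% interval lay within -2 and 2 for 72.7% of genes, so differences of moderate size were not detectable for most genes.

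The size of the shift followed the level of the gene. Among the 682 genes with a mean log2 value under -1 the median difference was 0.39, and 8.36% were higher at an unadjusted p-value under 0.05 and 0.587% lower. It was 0.38 among the 2286 genes with a mean between -1 and 0, where 7.61% were higher. Among the 3069 genes with a mean between 0 and 1 the median was 0.26, and 6.35% were higher. Among the 1148 genes with a mean over 2 it was -0.01, and here 1.48% were higher and 3.48% lower. Genes of low level were thus mostly higher in REST cKO, and the highest genes were more often lower, which is the direction in which the share of values under -2 also differed. With that share as a further term in the model the split was 412 higher and 204 lower, and the median difference was 0.09. The gene lists below are set against all genes and not against genes of their own level. The part of level in their shares and medians was not tested.

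**Figure D1:**
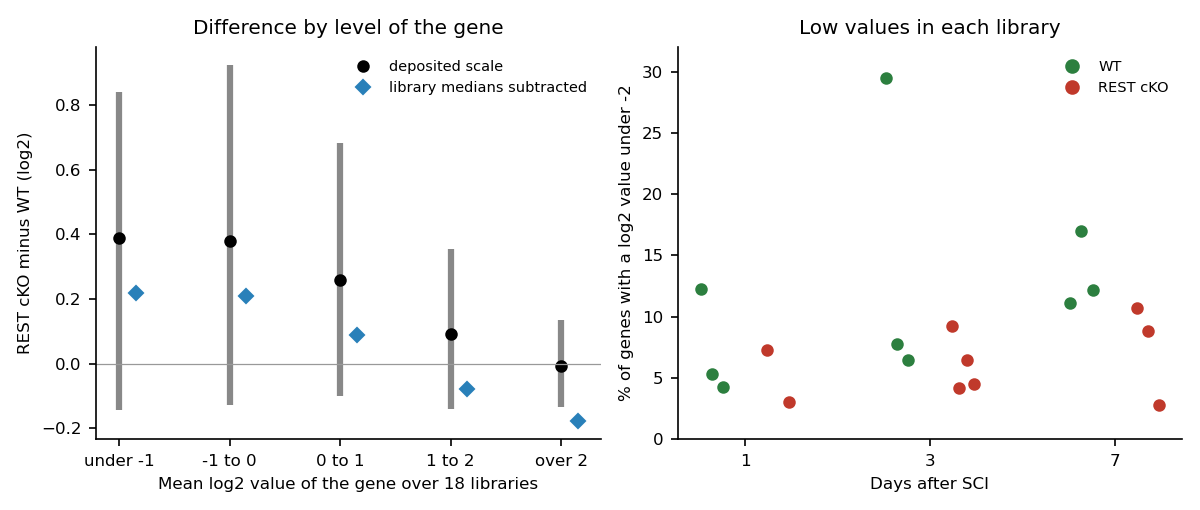
Left, the median genotype difference (REST cKO minus WT, log2) of genes grouped by their mean log2 value, with quartiles as grey bars and with library medians subtracted as diamonds; it went from 0.39 in the lowest genes to -0.01 in the highest. Right, the percentage of genes with a log2 value under -2 in each injured library, where WT day 3 replicate 5 stood at 29.5%.

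A small number of genes separated the genotypes at each day. In 7 genes every REST cKO library was above every WT library within days 1, 3 and 7 (0.0705% of genes), and in 2 genes every REST cKO library was below (0.0201%). They were picked out with their values known, apart from *Sox7* and *Igha*, which the rule for named genes also gave. The 7 are *Sox7*, *Fam3a*, *Zmpste24*, *Pcyt2*, *Vps13b*, *Mapkap1* and *Sox11*, and the 2 are *Igha* and *Lgals3bp*. In *Sox7*, *Fam3a* and *Zmpste24* all 9 REST cKO libraries were also above all 9 WT libraries regardless of day. None of them passed the adjusted threshold.

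*Sox7*, a SoxF transcription factor known from endothelial development, lies on chr14:63943673-63950732 (plus strand, GRCm38). Its log2 value ran from -2.36 to -0.15 in WT (median -0.79) and from 0.31 to 2.32 in REST cKO (median 1.25). The difference was 2.31 (standard error 0.52, adjusted p = 0.438 from limma). Its group means, without day or the components in a model, differed by 2.62, 2.44 and 1.97 within batches 1, 2 and 3. *Fam3a*, a member of the FAM3 family of secreted proteins on the X chromosome, ran from -3.53 to -0.08 in WT (median -0.67) and from 0.36 to 2.38 in REST cKO (median 1.14). Its difference was 2.36 (standard error 0.58, adjusted p = 0.438 from limma). *Zmpste24*, the metalloprotease that matures lamin A, had values from -0.50 to 0.93 in WT and from 1.25 to 2.11 in REST cKO. Its difference was 1.36 (standard error 0.35, adjusted p = 0.482 from limma).

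*Pcyt2*, which makes the precursor of phosphatidylethanolamine, differed by 2.48 (standard error 0.62), and *Vps13b*, a lipid transfer protein of the Golgi, by 2.42 (standard error 0.63). *Mapkap1*, a subunit of the mTORC2 kinase complex, differed by 1.34 (standard error 0.42). *Sox11*, a transcription factor of developing neurons, differed by 1.91 (standard error 0.61), its group means differing by 2.14, 0.77 and 3.10 at days 1, 3 and 7. At day 3 the groups of *Sox11* came close, with WT values up to 0.42 and REST cKO values from 0.51, and the fitted day 3 difference, with the sequencing components in the model, was 0.04 (standard error 1.08). *Sox11* is among the genes that correlate with a component.

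**Figure D2:**
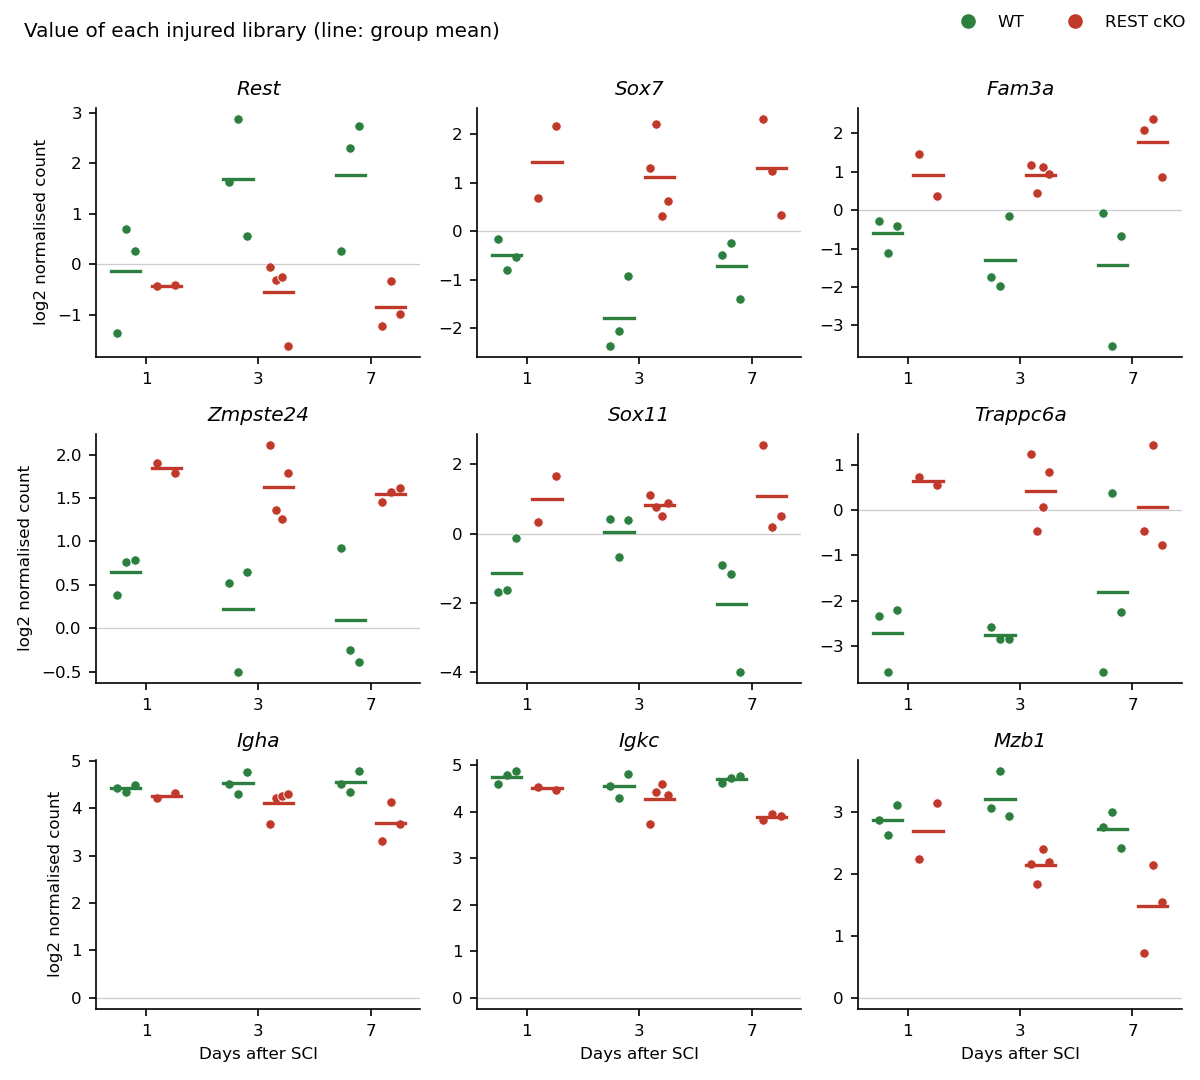
Log2 normalised count of 9 genes in each injured library by day, WT in green and REST cKO in red, with lines at group means. REST cKO libraries lie above all WT libraries of the same day for *Sox7*, *Fam3a*, *Zmpste24* and *Sox11*, and below them for *Igha*.

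The smallest p-values among genes higher at each day belonged to *Trappc6a*, *Sox7*, *Actn4*, *Sparcl1*, *Atf2* and *Pmaip1*, none of which passed (adjusted p = 0.438 for each, limma). *Trappc6a*, a subunit of the TRAPP vesicle-tethering complex, had the largest difference, 2.79 (standard error 0.62). Its WT values ran from -3.57 to 0.39 with a median of -2.57, and its REST cKO values from -0.78 to 1.44. The single WT library that reached REST cKO values was WT day 7 replicate 7. Without it the difference was 3.22 and the adjusted p-value from limma 0.0976, the only one of its 35 alternatives under 0.1, in a range that reached 0.846. *Actn4*, which crosslinks actin filaments, differed by 1.98 (standard error 0.47), and *Pmaip1*, the pro-apoptotic protein NOXA, by 2.24 (standard error 0.55). *Sparcl1*, a secreted protein that promotes synapses, was at a high level in both genotypes. It ran from 1.86 to 3.22 in WT and from 2.84 to 3.64 in REST cKO, a difference of 0.69 (standard error 0.17), and in sham the difference was 1.10 (standard error 0.35). *Atf2*, a stress-responsive transcription factor, differed by 1.74 (standard error 0.42), with values from -2.02 to 2.59 in WT and from 0.87 to 3.79 in REST cKO.

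Among genes lower at each day the smallest p-values belonged to *Igha*, *Igkc*, *Mzb1*, *Ythdf1*, *Ighg2b* and *Lman1*. *Ythdf1*, a reader of methylated adenosine in mRNA, ran from 1.81 to 3.00 in WT and from 0.71 to 2.11 in REST cKO, and 7 REST cKO libraries were below all WT libraries. Its difference was -1.04 (standard error 0.25, adjusted p = 0.438 from limma). *Lman1*, a cargo receptor between the endoplasmic reticulum and the Golgi, differed by -0.86 (standard error 0.23, adjusted p = 0.558 from limma), and *Lgals3bp*, a secreted glycoprotein, by -0.60 (standard error 0.17, adjusted p = 0.593 from limma). The other 4 genes are immunoglobulin or plasma cell genes and are taken up further on.

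The days were compared with each other directly. The test of whether the genotype difference changed with the day gave 0 genes at an adjusted p-value under 0.1 (0%; the smallest was 0.494) and 681 at an unadjusted p-value under 0.05 (6.86%). The group means were higher in REST cKO at all 3 days in 2057 genes (20.7%) and lower at all 3 days in 719 (7.24%). Together these are 28.0% of genes. Signs also agree at 3 days in part of the genes without a shared effect, more so where 64.3% of the pooled differences are above 0. The counts are therefore not read as genes with a shared effect. Across the 9931 genes, which are not independent of each other, the correlation of the differences of group means was 0.13 between days 1 and 3, -0.02 between days 1 and 7, and -0.000297 between days 3 and 7. For the fitted differences, with the sequencing components in the model, these correlations were -0.29, -0.18 and 0.08. No library is shared between days. The fitted differences do share the slopes of the 2 components, which were estimated over all 18 libraries, so they are not independent between days. No opposite effect between days is read from the negative values. *Mapkapk2*, a kinase of the p38 stress pathway picked out with its values known, had an unadjusted interaction p-value of 0.0134 from limma, its group means differing by 0.12, -0.02 and 1.66 at days 1, 3 and 7. *Aspa*, an enzyme of oligodendrocytes, had differences of group means of -0.03, -0.10 and 3.92 at days 1, 3 and 7 and an interaction p-value of 0.0209 before adjustment, from limma.

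**Figure D3:**
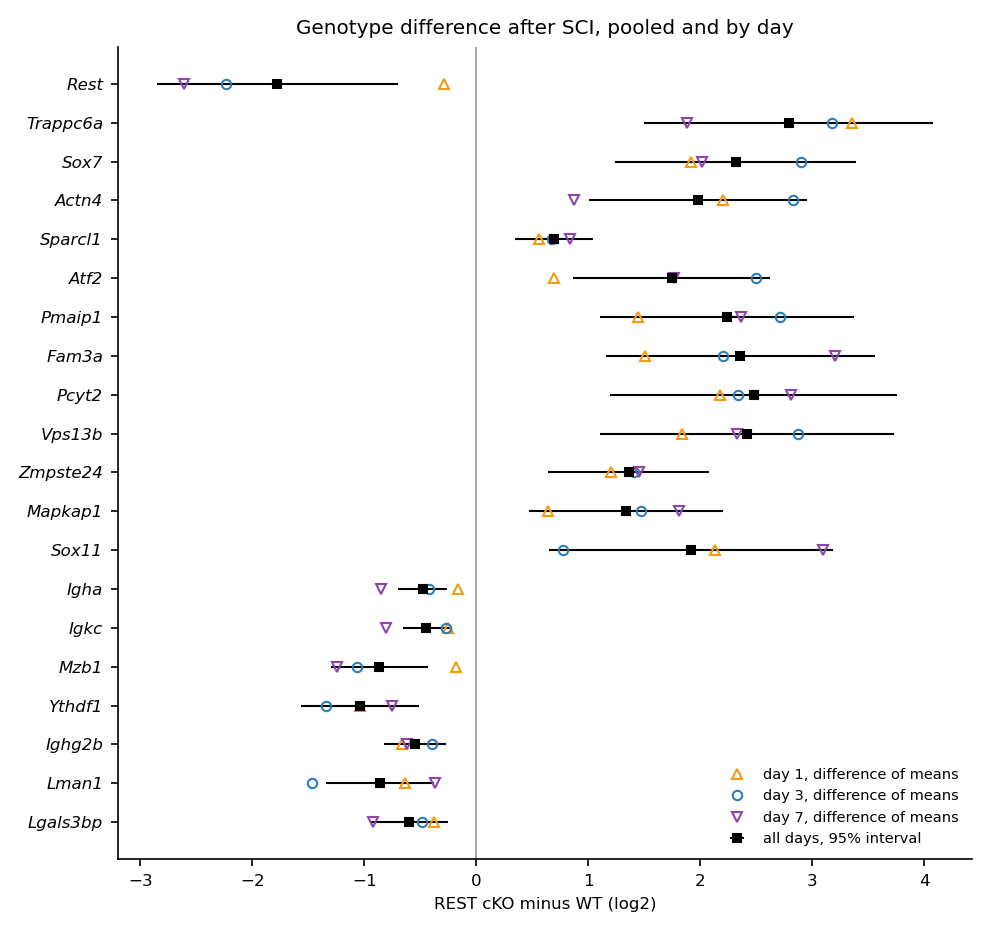
Genotype difference (REST cKO minus WT, log2) of *Rest*, of the genes with the smallest p-values in each direction and of the genes separated at each day. Squares give the pooled difference with its 95% interval and open symbols the difference of group means at days 1, 3 and 7; all genes shown keep 1 sign at the 3 days, and *Rest* was least different at day 1 (-0.29).

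REST and its corepressors were described by 31 measured genes of 36 listed. Apart from *Rest* itself, the differences at an unadjusted p-value under 0.05 were in *Prickle1*, which carries REST to the nucleus, *Hdac3*, the histone deacetylase of the NCoR complex, and *Ehmt2*, the histone methyltransferase G9a. *Prickle1* differed by 1.82 (standard error 0.66), with group means differing by -0.17 at day 1 and 3.24 at day 7, *Hdac3* by 1.56 (standard error 0.65), and *Ehmt2* by 1.16 (standard error 0.53). These 3 genes were higher in REST cKO (9.68%, against 5.44% of all genes), and *Rest* was lower. Centred, 2 members were higher and 2 lower. The median of the list was 0.15, and -0.02 with library medians subtracted.

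Genes known in textbooks as targets of REST were measured for 84 of 109 listed. At an unadjusted p-value under 0.05, 7 were higher in REST cKO (8.33%, against 5.44% of all genes) and 0 lower (against 1.19%), and none passed the adjusted threshold. Their median difference was 0.27, and 0.10 with library medians subtracted, with 5 then higher and 1 lower. The 7 on the deposited scale are *Pcsk2*, *Disp2*, *Kif1a*, *Nsg2*, *Gria2*, *Glra3* and *Syt4*. *Pcsk2*, a convertase that matures neuropeptides, ran from -1.15 to 2.17 in WT (median 0.61) and from 0.87 to 3.12 in REST cKO (median 1.44), a difference of 1.32 (standard error 0.45, adjusted p = 0.670 from limma). *Kif1a*, the motor that carries synaptic vesicle precursors along axons, differed by 1.97 (standard error 0.73), with group means differing by -0.19 at day 1 and by 2.33 and 3.30 at days 3 and 7. *Syt4*, a synaptotagmin of dense-core vesicles, differed by 1.53 (standard error 0.73). The member with the strongest difference downwards was *Elavl4*, a neuronal RNA-binding protein, at -0.72 (standard error 0.47, adjusted p = 0.831 from limma). Day by day the median of the list was 0.05, 0.03 and 0.94 at days 1, 3 and 7, and in sham it was 1.0. For all genes these medians were 0.19, 0.06, 0.22 and 0.04, and for general neuron markers -0.08, -0.45, 0.56 and 1.08.

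The element that REST binds was looked for in the 300 bases around gene starts (250 before and 50 after, RefSeq, GRCm38.p6). The letters CAGCACC and GGACAG with any 2 bases between them, on either strand, occurred in 12 of 32851 such promoters (0.0365%), and 3 of the measured genes had one: *Fam163b*, *Hrh3*, the histamine H3 receptor, and *Osbp2*, an oxysterol-binding protein. Leaving out the outer letters (AGCACC and GGACA with the same gap, a search added after values were seen that contains the first) gave 22 promoters (0.067%) and 9 measured genes, among them *Gria2*, the GluA2 subunit of AMPA receptors, which is also in the textbook list. The sites of *Gria2* and of the 3 genes are shown, the 3 because they hold the longer letters and *Gria2* because it is the member of the 9 at an unadjusted p-value under 0.05, with the fixed letters of the search in capitals. The other members with the shorter letters are *Dner*, *Eif5*, *Gad2*, *Robo2* and *Scamp5*.
Gria2 (chr3:80802988-80803008, plus strand): ttttAGCACCgcGGACAgcgc
Fam163b (chr2:27142562-27142582, minus strand): cgtCAGCACCagGGACAGttc
Hrh3 (chr2:180104573-180104593, plus strand): gggCAGCACCacGGACAGcgc
Osbp2 (chr11:3774790-3774810, plus strand): cttCAGCACCgcGGACAGcgg
*Gria2* had log2 values of 1.51, 1.61 and 1.46 in WT and 2.84 and 1.40 in REST cKO at day 1. At day 3 they were 1.58, 1.10 and 0.90 in WT and 1.86, 1.84, 1.47 and 1.97 in REST cKO, and at day 7 they were 1.90, 0.60 and 2.36 in WT and 3.08, 1.64 and 2.84 in REST cKO. The groups overlapped at each day. The difference was 0.69 (standard error 0.29, unadjusted p = 0.0285, adjusted p = 0.696 from limma). In sham *Gria2* differed by 0.76. *Fam163b* differed by 0.89 (standard error 0.75), *Osbp2* by 0.05 (standard error 0.35) and *Hrh3* by -0.50 (standard error 0.80), which are not distinguishable from 0. Over the 9 genes with the shorter letters the median was 0.25, with 1 of 9 at an unadjusted p-value under 0.05, or 0 when centred.

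Genes with a REST footprint, as the study listed them from open chromatin of retinal ganglion cells, are from another cell type and other samples. Of the 541 measured, 40 were higher in REST cKO at an unadjusted p-value under 0.05 (7.39%, against 5.44% of all genes) and 5 lower (0.924%, against 1.19%). Their median was 0.23, and 0.06 with library medians subtracted, when 23 were higher and 11 lower. *Smad1*, the transducer of BMP signals, had the smallest p-value, with a difference of 2.24 (standard error 0.63, adjusted p = 0.593 from limma) and values from -3.76 to 0.91 in WT and from -1.54 to 0.91 in REST cKO. Within batches 1, 2 and 3 its group means differed by 3.13, 2.89 and -1.02. Among those lower, *Pde4a*, a cAMP phosphodiesterase, differed by -1.31 (standard error 0.43, adjusted p = 0.667 from limma). Without the 14 members that correlated with a component, 33 of 527 were higher (6.26%) and 4 lower.

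Regeneration-associated genes, those that injured peripheral neurons switch on while their axons regrow, were measured for 50 of 70 listed. At an unadjusted p-value under 0.05, 12 were higher in REST cKO (24.0%, against 5.44% of all genes) and 1 lower, and their median was 0.30. None passed the adjusted threshold. The 12 are *Atf2*, *Smad1*, *Jun*, *Atf3*, *Sox11*, *Stat3*, *Mapkapk2*, *Rapgef4*, *Igf1r*, *Lgals1*, *Syt4* and *Creb1*. Of these, 9 are also among the genes that the study names on these same libraries, so the count is not independent evidence of a direction. Among the 33 members that the study does not name, 3 were higher (9.09%; *Igf1r*, *Lgals1* and *Creb1*) and 1 lower, with a median of 0.19. The first 7 of the 12 are among the 140 genes that correlate with a component. Among the other 40 members 5 were higher (12.5%) and 1 lower. With library medians subtracted the list had 5 higher and 1 lower and a median of 0.13. *Jun*, a transcription factor of the injury response, ran from 1.84 to 2.86 in WT and from 1.87 to 3.77 in REST cKO, with 6 REST cKO libraries above all WT libraries, and differed by 0.53 (standard error 0.17, adjusted p = 0.647 from limma). Its group means differed by -0.19, 1.09 and 0.57 at days 1, 3 and 7. *Atf3*, which is induced by axon injury, ran from -3.10 to 1.02 in WT and from 0.54 to 1.75 in REST cKO, a difference of 1.88 (standard error 0.60). *Igf1r*, the receptor of a growth factor for corticospinal neurons, differed by 0.59 (standard error 0.23) and *Lgals1*, galectin-1, by 0.63 (standard error 0.26), and neither correlated with a component. *Spp1*, osteopontin, was the member lower in REST cKO, with values from -0.06 to 2.51 in WT and from -1.04 to 1.99 in REST cKO, a difference of -0.92 (standard error 0.38).

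The 18 genes that the study names for this experiment had 9 higher and 1 lower at an unadjusted p-value under 0.05 (against 5.44% and 1.19% of all genes), with a median of 0.49. Centred, 5 were higher and 1 lower, with a median of 0.32. The study reports on them from these same libraries, so this count is not independent evidence of a direction. It had picked some of them beforehand, *Jun*, *Smad1*, *Sox11*, *Stat3* and *Atf3* from other injury datasets. Of the 18, 11 correlate with a component, and of the other 7, 2 were higher (*Rapgef4* and *Syt4*). *Socs3*, an inhibitor of cytokine signalling, differed by 0.18 (standard error 0.39). *Gap43*, a protein of growth cones, differed by 0.26 over the days (standard error 0.44), but its group means differed by -0.96, -0.11 and 1.68 at days 1, 3 and 7 (interaction p-value 0.0259 before adjustment, from limma). At day 7 its values ran from 0.40 to 1.25 in WT and from 2.16 to 2.67 in REST cKO, without overlap.

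**Figure D4:**
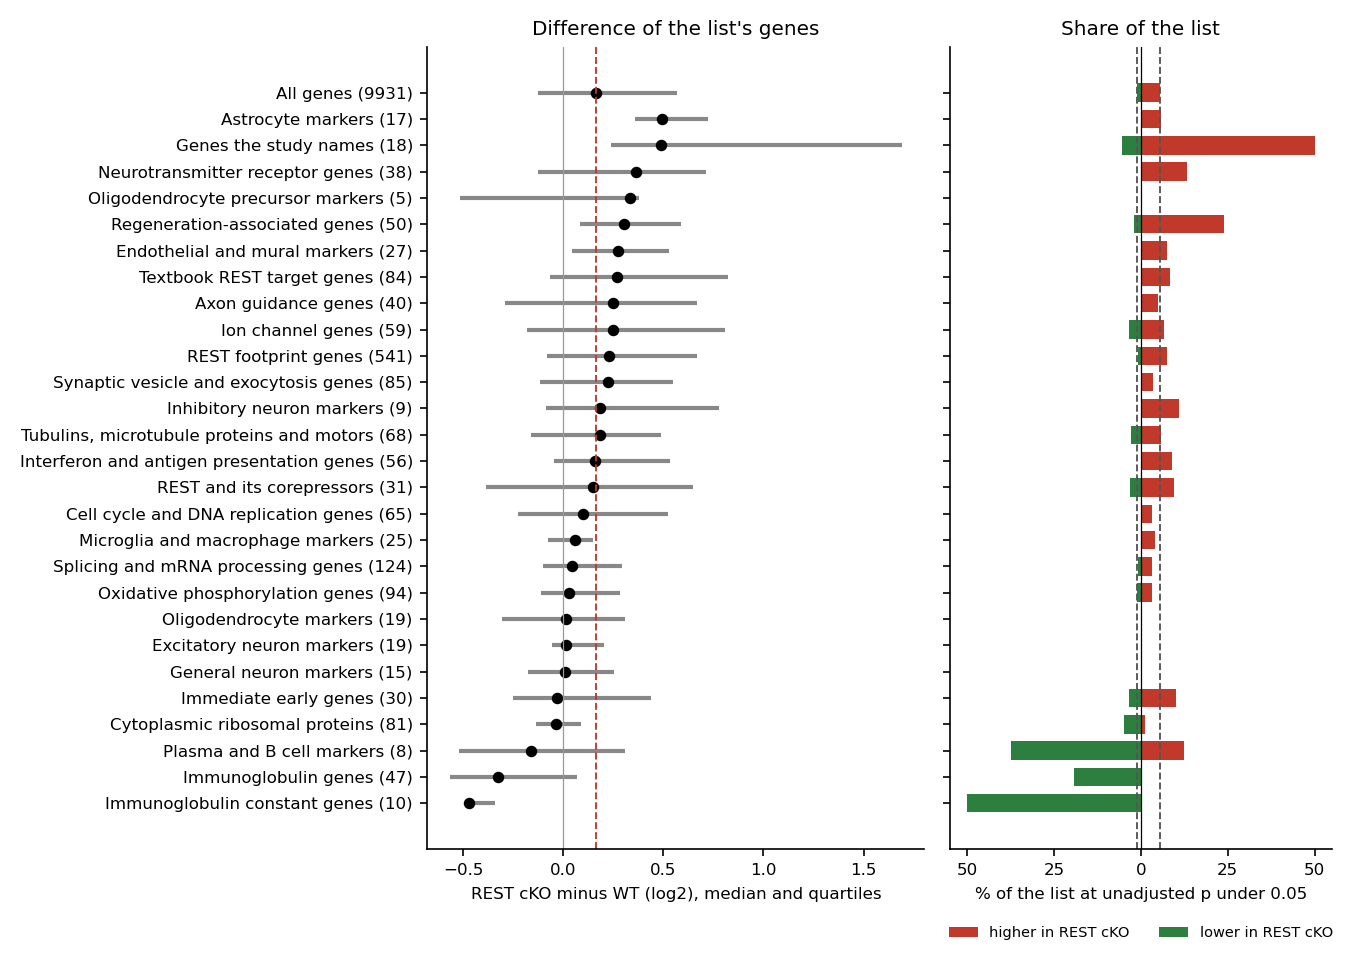
Left, median and quartiles of the genotype difference (log2) over the measured members of each list, whose number is in brackets, with the median of all genes (0.16) as a dashed line. Right, the percentage of each list higher (red) or lower (green) in REST cKO at an unadjusted p-value under 0.05, with dashed lines at the shares of all genes (5.44% and 1.19%); immunoglobulin constant genes have 5 of 10 lower and markers of excitatory neurons and of neurons in general 0%.

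The genes by which neurons signal were described by function. Neurotransmitter receptors had 5 of 38 higher (13.2%, against 5.44% of all genes) and 0 lower, and a median of 0.36. Centred, 2 were higher and 0 lower, and the median was 0.19. The 5 are *Gabra2*, *Gabra3*, *Gria2*, *Glra3* and *Oprl1*. *Gabra2*, a subunit of GABA-A receptors, differed by 1.35 (standard error 0.55), and *Grik1*, a kainate receptor subunit, by -0.99 (standard error 0.69). Of the receptors 11 correlate with a component, and 3 of the other 27 were higher. Ion channels had 4 of 59 higher (6.78%) and 2 lower (3.39%, against 1.19% of all genes), or 1 higher and 2 lower when centred. *Kcnip4*, which modulates Kv4 channels, differed by 1.5 (standard error 0.56). *Kcnq5*, a potassium channel of the M current, was lower at each day, with values from -0.17 to 2.99 in WT and from -1.91 to 0.72 in REST cKO. Its difference was -1.53 (standard error 0.47, adjusted p = 0.618 from limma). In sham *Kcnq5* differed by -1.93. *Clcn4*, a chloride and proton exchanger, differed by -0.50 (standard error 0.18).

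Synaptic vesicle and exocytosis genes had 3 of 85 higher (3.53%, against 5.44% of all genes) and 0 lower, or 1 and 1 when centred, with *Pclo*, a scaffold of the presynaptic zone, at -0.67 (standard error 0.40). Axon guidance genes had 2 of 40 higher (5%, near that share), or 1 when centred. The 2 are *Sema6d* (1.45, standard error 0.60) and *Sema3c* (1.5, standard error 0.65), both semaphorins, and *Nrp2*, a semaphorin receptor, was at -0.42 (standard error 0.28). Tubulins, microtubule proteins and motors had 4 of 68 higher and 2 lower (5.88% and 2.94%, against 5.44% and 1.19% of all genes), or 3 and 5 when centred, among them *Nde1*, a partner of dynein, at -1.57 (standard error 0.64) and *Tubb2a* at 0.50 (standard error 0.21).

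Genes of general cell functions are read against the 5.44% of all genes that were higher and the 1.19% that were lower (3.08% and 2.89% centred). Splicing and mRNA processing genes had 4 of 124 higher and 1 lower (3.23% and 0.81%), or 2 and 4 when centred, with *Srsf3* at 0.67 (standard error 0.24) and *Sf3b1* at -0.42 (standard error 0.15). Cell cycle and DNA replication genes had 2 of 65 higher (3.08%) and 0 lower, or 0 and 2 when centred, *Orc4* at 1.5 (standard error 0.65) among them, and *Orc3* was at -0.80 (standard error 0.40). Cytoplasmic ribosomal proteins had 1 of 81 higher and 4 lower (4.94%, against 1.19% of all genes), led by *Rpl28* at -0.63 (standard error 0.17) and *Rpl8* at -0.51 (standard error 0.16). Centred, 0 of them were higher and 20 lower, and the median of the list went from -0.04 to -0.21. These genes are of high level, with a mean log2 value over the list from 2.46 to 2.89 in WT. Among all genes with a mean over 2, 3.48% were lower, and their centred median was -0.18, near the values of this list. Oxidative phosphorylation genes had 3 of 94 higher and 1 lower (3.19% and 1.06%), or 1 and 3 when centred. The shares of these lists on the deposited scale lay below those of all genes, apart from the lower ribosomal proteins. Immediate early genes had 3 of 30 higher (10%), which are *Jun*, *Atf3* and *Rheb*, and 1 lower (3.33%), *Ier2*, at -0.72 (standard error 0.32), and a median of -0.03. *Jun* and *Atf3* correlate with a component, and without the 5 members that do, 1 of 25 was higher (4%). Centred, 1 of them was higher and 1 lower.

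Interferon and antigen presentation genes had 5 of 56 higher (8.93%, against 5.44% of all genes) and 0 lower, and a median of 0.16, equal to that of all genes. Centred, 4 were higher and 3 lower, so the one-sided split was not kept. *Tmem173* (STING), the sensor of cyclic dinucleotides, ran from -2.28 to 2.22 in WT and from 1.25 to 2.56 in REST cKO, a difference of 1.37 (standard error 0.47, adjusted p = 0.670 from limma). *Usp18*, *Trim21*, *Ifnar1* and *Irf3* differed by 1.70, 1.78, 1.59 and 1.15. *H2-K1*, a class I molecule, was at -0.13 (standard error 0.09).

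Markers of cell types gave the following. Excitatory neuron markers had 0 of 19 and general neuron markers 0 of 15 at an unadjusted p-value under 0.05, with medians of 0.02 and 0.01, and 0 in both lists when centred. *Rasgrf2* was at 1.18 (standard error 0.62), *Etv1* at -0.40 (standard error 0.50) and *Eno2* at 0.75 (standard error 0.40). Inhibitory neuron markers had 1 of 9 (11.1%), *Ndnf*, at 2.10 (standard error 0.72), with *Erbb4* at -0.41 (standard error 0.86). Of the astrocyte markers, 17 of 21 were measured. Their median was 0.49 after injury, 0.32 when centred, and 1.13 in sham. Other lists also had high medians in sham (1.08 for general neuron, 0.95 for inhibitory neuron and 0.83 for oligodendrocyte precursor markers), where that of all genes was 0.04. After injury the 17 had differences above 0, as had 64.3% of all genes, and 15 of the 17 did so with library medians subtracted. Single members were imprecise, and *Slc4a4*, a bicarbonate transporter, at 1.59 (standard error 0.65), was the only one at an unadjusted p-value under 0.05 (5.88%, against 5.44% of all genes higher). *Aqp4*, *Gfap*, *Aldh1l1* and *Acsbg1* were not among the genes tested. The mean log2 value over the 17 ran from -0.45 to 2.38 in WT (median 0.62) and from 0.62 to 2.13 in REST cKO (median 1.45), so the groups overlapped. The list differed in the same direction as *Sparcl1*, a gene of astrocytes, and its part in that difference was not tested.

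Microglia and macrophage markers had 1 of 25 higher (4%, against 5.44% of all genes) and 0 lower, or 1 and 1 when centred, the higher one being *Cd14* at 1.27 (standard error 0.54), with *Csf1r* at -0.27 (standard error 0.15), and a mean log2 value from 2.09 to 2.72 in WT and from 2.48 to 2.80 in REST cKO. Endothelial and mural markers had 2 of 27 higher (7.41%, against 5.44% of all genes) and 0 lower, or 1 and 0 when centred. The 2 are *Tagln* at 1.68 (standard error 0.67) and *Pltp* at 1.76 (standard error 0.79), and *Tek* was at -0.85 (standard error 0.54). Their mean log2 value ran from 1.34 to 2.10 in WT and from 1.53 to 2.50 in REST cKO, beside the difference of *Sox7* in the same direction, whose link to these cells was not tested. Oligodendrocyte markers had 0 of 19, or 1 lower when centred, with *Aspa* at 1.27 (standard error 0.76) and *Trf* at -0.60 (standard error 0.31), and oligodendrocyte precursor markers 0 of 5, with *Bcas1* at 0.92 (standard error 0.70) and *Sox8* at -1.04 (standard error 0.66).

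Immunoglobulin genes had more differences below 0 than above. Antibody chains are made by B cells and plasma cells and not by neurons, and the group was picked out with its values known. Of the 47 measured immunoglobulin genes, 9 were lower at an unadjusted p-value under 0.05 (19.1%, against 1.19% of all genes) and 0 higher, with a median of -0.33. Centred, 12 were lower and 0 higher. All 10 constant-region genes had a difference below 0, from -0.15 to -1.26, and 5 of them were lower at an unadjusted p-value under 0.05. With library medians subtracted the constant-region genes had 7 lower and 0 higher. The mean log2 value over the 10 ran from 2.87 to 3.51 in WT (median 3.08) and from 2.09 to 3.05 in REST cKO (median 2.81).

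*Igkc*, the kappa light chain constant region (chr6:70726435-70726966, plus strand, GRCm38), had log2 values of 4.61, 4.79 and 4.88 in WT and 4.54 and 4.47 in REST cKO at day 1. At day 3 they were 4.57, 4.30 and 4.81 in WT and 3.75, 4.43, 4.61 and 4.36 in REST cKO, and at day 7 they were 4.63, 4.74 and 4.77 in WT and 3.83, 3.96 and 3.91 in REST cKO. The groups overlapped only at day 3. The difference was -0.45 (standard error 0.10, adjusted p = 0.438 from limma). *Ighg2b*, an IgG heavy chain, ran from 3.85 to 4.34 in WT and from 2.89 to 4.24 in REST cKO, a difference of -0.55 (standard error 0.13, adjusted p = 0.438 from limma). *Igha*, the heavy chain of IgA, ran from 4.31 to 4.79 in WT and from 3.31 to 4.32 in REST cKO, with 8 REST cKO libraries below all WT libraries and the ninth above only 1 of them, and differed by -0.48 (standard error 0.10, adjusted p = 0.438 from limma). With day 3 left out 3 genes passed, *Igkc* at -0.61 (adjusted p = 0.0229 from limma), *Igha* at -0.69 (adjusted p = 0.0318) and *Jchain*, the joining chain of IgA and IgM, at -0.87 (adjusted p = 0.0335). The interaction of genotype and day had p-values before adjustment of 0.0372 for *Igkc*, 0.0300 for *Igha* and 0.0266 for *Jchain* (limma), and the fitted day 3 differences were -0.20, -0.18 and 0.01. Over its alternatives the adjusted p-value of *Igkc* reached 0.888 and that of *Igha* 0.846.

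Markers of plasma and B cells had 1 of 8 measured higher and 3 lower at an unadjusted p-value under 0.05 (all genes 5.44% and 1.19%), or 0 and 3 when centred (all genes 3.08% and 2.89%). *Mzb1*, a chaperone of plasma cells, ran from 2.42 to 3.66 in WT and from 0.73 to 3.14 in REST cKO, and 8 REST cKO libraries were below all 9 WT libraries. Its difference was -0.87 (standard error 0.21, adjusted p = 0.438 from limma). *Xbp1*, the transcription factor of secretory cells, differed by -0.52 (standard error 0.16), and *Jchain* by -0.53 (standard error 0.14). *Tnfrsf17* (BCMA), a receptor of plasma cells, differed in the other direction, by 1.03 (standard error 0.46). *Cd79a*, *Ms4a1* and *Sdc1*, which define B cells or plasma cells, were at 0.25, 0.48 and -0.13 with standard errors from 0.64 to 0.70. In sham, without injury, *Igha* differed by -1.0 and passed (adjusted p = 0.0511 from limma), and its injured minus sham value was 0.52 (unadjusted p = 0.0197). *Igkc* differed by -0.20 in sham.

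**Figure D5:**
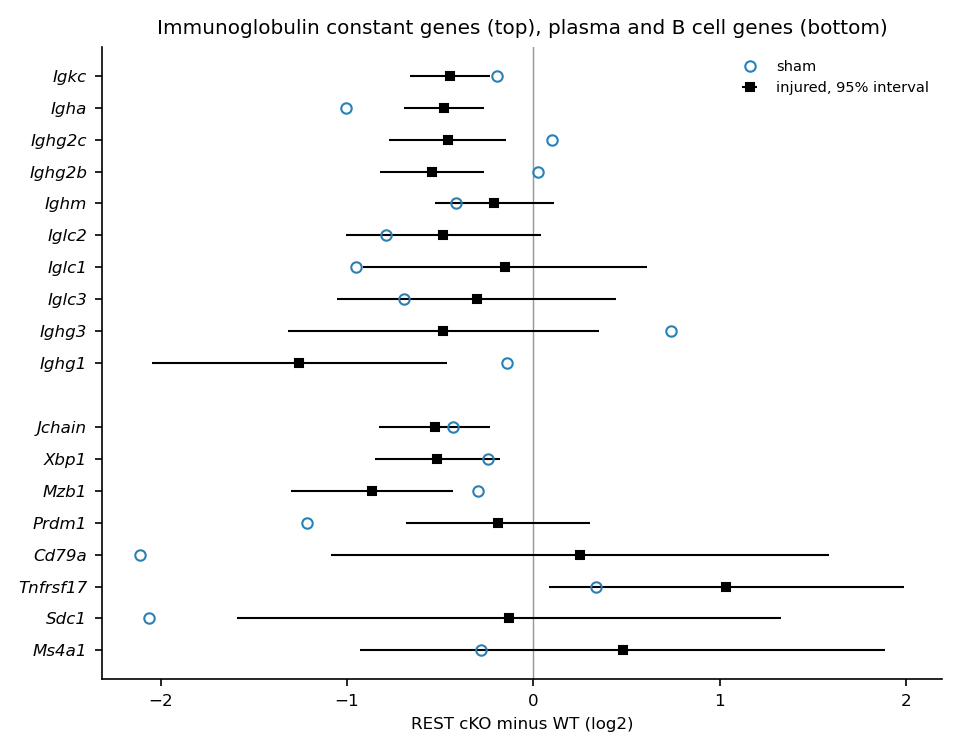
Genotype difference (REST cKO minus WT, log2) of the 10 immunoglobulin constant genes and of 8 genes of plasma and B cells, with 95% intervals for the injured libraries (squares) and the sham difference (circles). All 10 constant genes lie below 0 after injury, and *Tnfrsf17* lies above it.

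Whether these differences needed the injury was tested against sham, with 4 WT and 3 REST cKO libraries. The 3 REST cKO sham libraries were all labelled male, while WT sham had both sexes. Batch 3 held a REST cKO sham library and no WT one. Neither sex nor batch was in this model. In sham itself 3 genes passed at an adjusted p-value under 0.1 (0.0302%), all lower in REST cKO, which are *Igha*, *N4bp2l2* and *Rpl3-ps1*. The injured difference, averaged over the days, differed from the sham difference in 0 of 9931 genes at an adjusted p-value under 0.1 (0%; the smallest was 0.347), and in 541 at an unadjusted p-value under 0.05 (5.45%), with 351 above the sham difference and 190 below it. *Rest* differed by -1.47 in sham (standard error 0.99), and the injured minus sham value was -0.29 (standard error 1.11). *Pmaip1* was at -0.28 in sham (standard error 0.98), with an injured minus sham value of 2.42 (standard error 1.10, unadjusted p = 0.037). *Sox7* was at 0.22 in sham (standard error 0.99), with an injured minus sham value of 2.05 (standard error 1.12, unadjusted p = 0.0783). *Tek*, the angiopoietin receptor, was at 2.93 in sham and -0.85 after injury, an injured minus sham value of -3.79 (standard error 1.25, unadjusted p = 0.0054), and *Pclo* gave -2.11 (standard error 0.83). None of these passed the adjusted threshold in limma.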

How the data were processed

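RNA from sorted cortical neurons was sequenced by the study with a 3′ mRNA kit. The submitters' processing notes name mm10, STAR, Salmon, DESeq2 and limma, with versions not given in the sources used here. The authors deposited log2 normalised counts, corrected for batch and with 2 sequencing components regressed out, so the depth of single libraries is unknown from these values and counts could not be recovered. The log2 fold changes and p-values of the authors' own comparisons, also deposited, were not used. Of 9955 rows, 24 without a gene symbol were left out (0.241%), and 0 columns belonged to other samples.

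Per gene, genotype was tested over 18 libraries with limma 3.58.1 (R 4.3.3), with day and the 2 components in the model, a mean-variance trend and no further filter on low values. Interaction terms tested genotype by day, and all 25 libraries with 8 group means tested injured against sham. P-values were adjusted over all 9931 genes by the Benjamini-Hochberg method, with a threshold of 0.1. The study describes replicates as mice, the labels do not tie libraries to mice, and p-values measure the spread between libraries. Arrangements for the permutation tests were drawn within days. The test was checked on simulated data.

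The libraries compared and the gene lists were chosen with earlier results of these data known, and the immunoglobulin and plasma cell lists and the shorter RE1 letters after values were seen. Named genes were *Rest*, up to 6 genes of smallest p-value in each direction with the same sign at each day (none having passed), and from each list the member of largest moderated statistic in each direction. Unnamed gene models were passed over. Other genes in the text are members of a list at an unadjusted p-value under 0.05, or were chosen after their values were seen. Ribosomal and oxidative phosphorylation lists were made by gene name. Gene positions are from GENCODE (GRCm38), for 9930 genes. RE1 letters were searched on both strands of 32851 RefSeq promoters (7748 measured genes had one), without chromosome 18. Alternatives were other model terms, filters, normalizations and subsets of libraries and days.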

Additional observations from a re-analysis of the deposited data

Results flagged for a closer look

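Among 156 groups of values examined, 9 had 1 library far from the others of its group, where chance alone flags about 1 in 20 groups. REST cKO day 3 replicate 27 was the lowest of its day for *Rest* (-1.61, the next at -0.31) and the lowest of the injured REST cKO libraries for *Sf3b1* (2.05), and the highest of them for *Nrp2* (2.88). REST cKO day 3 replicate 9 was the lowest of its day for *Igha* (3.66, the next at 4.22) and for *Grik1* (-3.48). WT day 7 replicate 7 was the highest injured WT library for *Trappc6a* (0.39, the next at -2.22). REST cKO day 7 replicate 2 was the lowest injured REST cKO library for *Ier2* (-0.65), and REST cKO day 1 replicate 25 the lowest for *Smad1* (-1.54). WT day 3 replicate 5 had the highest share of values under -2 among injured WT libraries (29.5%).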

How the results depend on the processing

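The count of genes passing, 0 as reported, was 0 to 1 when 1 library was left out in turn. It was 1 without WT day 3 replicate 5 (*Tti2*, 3.55, adjusted p = 0.0809 from limma) and 1 without WT day 7 replicate 7 (*Trappc6a*, 3.22), and it was 3 with day 3 left out (*Igkc* -0.61, *Igha* -0.69 and *Jchain* -0.87). The 540 genes higher at an unadjusted p-value under 0.05 became 310 where low genes (mean log2 value below 0) were left out, 260 with quantile normalization and 306 with library medians subtracted. The 118 lower became 257 and 287 on those last scales, 185 with day 7 left out, and 102 to 194 when 1 library was left out, 194 without WT day 3 replicate 5. They became 204 with a term for the share of values under -2 and 211 without WT day 3 replicate 5 and WT day 7 replicate 7, both chosen after seeing the data. Leaving out WT day 7 replicate 12, labelled female with high *Ddx3y*, gave 455 higher and 142 lower. Of single genes, the sign changed for *Grik1* (0.0664) and *Csf1r* (0.0513) with day 3 left out, *Aspa* (-0.22) with day 7 left out, *Bcas1* (-0.0932) with day 1 left out and *Erbb4* when 1 library was left out (-0.86 to 0.21; 0.21 without WT day 7 replicate 12 and 0.03 without REST cKO day 1 replicate 25). With quantile normalization the list median was -0.20 for REST and its corepressors, -0.15 for axon guidance and -0.00278 for genes that correlate with a component. With library medians subtracted it was -0.13 for splicing, -0.21 for ribosomal proteins and -0.14 for oxidative phosphorylation, and axon guidance was at -0.19 without the low genes. With day 3 left out it was 0.58 for regeneration-associated genes, 0.85 for receptors, 0.35 for general neuron markers, 0.87 for the genes with the shorter RE1 letters and 0.58 for genes that correlate with a component, which were at -0.00229 with day 7 left out. Synaptic vesicle genes were at 0.46 with day 1 left out and -0.0600 with day 7 left out, and the genes the study names at 0.87 with day 1 left out. The causes were not tested. For the 50 named genes, 1772 of the alternative values kept their direction and their side of the threshold, 6 changed sign and 3 passed the threshold. No paired analysis was possible because no groups share replicate numbers. Wider windows around gene starts were not searched for RE1, since only promoter sequences of this build were at hand. With a median standard error of 0.57, differences of moderate size were not detectable for most genes.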
